A study of Mus musculus with 48 samples.

Results

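Small nucleolar RNAs (snoRNAs) were examined in single-cell RNA-seq of 48 mouse cells. They were the rows of the deposited expression table whose symbol begins with Snora or Snord and a number, with rows of the same symbol summed, and they were chosen by their measured level: at least 1 FPKM in 1 or more cells. FPKM counts fragments per length of transcript and per amount mapped in a cell. Of 109 such symbols on 121 rows, 48 were members, 28 of 36 H/ACA (Snora) and 20 of 73 C/D (Snord) symbols, among 23284 symbols in the table. The remaining 61 symbols were listed at 0 in every cell. For none in 48 cells, the limit of 3 counts is 6.25% of cells and the upper exact Clopper-Pearson 95% bound is 7.40%. Both cover counting error only, and cells could hold the RNA without a value.

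The cells came from mouse embryonic stem cells of strain 129P2/OlaHsd with a doxycycline-inducible Mesp1, a transcription factor of nascent cardiovascular mesoderm. They grew as embryoid bodies with doxycycline at 500 ng/ml between days 2.25 and 3.25. On day 4, cells not stained by propidium iodide were sorted, and single ones were caught on a Fluidigm C1 chip. All 48 cells had this genotype and treatment, the labels name neither separate cultures nor an uninduced control, and the group therefore counted as 1 sample, so values are described and not tested. Each cell is called by its label (C01 to C95), and the number in the label has no meaning stated in the sources used here. Of 8 mesoderm markers all were detected in at least 12 cells, with Mesp1 in 30. Of 5 pluripotency markers, 4 were too. Of 4 endoderm markers only Foxa2 reached that mark, neither of the 2 neurectoderm markers did, and the endothelial (Cdh5, Pecam1) and blood markers (Hbb-bh1, Gata1) were below 1 FPKM in every cell.

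snoRNAs are short nuclear RNAs that guide chemical modification of ribosomal RNA in the nucleolus. C/D snoRNAs carry the short boxes C and D, bind fibrillarin and guide methylation of ribose. H/ACA snoRNAs fold into a pair of hairpins followed by the H and ACA boxes, bind dyskerin and guide conversion of uridine to pseudouridine. In mammals most are cut out of introns of host genes, many of which encode ribosomal proteins or translation factors or are long non-coding RNAs. Mature snoRNAs have no poly(A) tail.

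The sequences of 9 members are shown because these snoRNAs were in the most cells or held the largest summed FPKM of their family. They are from GENCODE M21 transcripts (GRCm38), written 5′ to 3′ as DNA. In H/ACA members the capitals mark the last ACA within the final 8 bases, and Snora81 has none there. In C/D members they mark TGATGA (box C) within the first 20 bases and the last CTGA (box D) within the final 20 bases, and Snord22 has no such TGATGA. Matches were sought on the RNA strand only, and the boxes do not overlap.
Snora81: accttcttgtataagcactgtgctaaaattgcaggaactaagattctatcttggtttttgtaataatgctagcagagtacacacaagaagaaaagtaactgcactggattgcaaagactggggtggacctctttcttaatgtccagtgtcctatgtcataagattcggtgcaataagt
Snora70: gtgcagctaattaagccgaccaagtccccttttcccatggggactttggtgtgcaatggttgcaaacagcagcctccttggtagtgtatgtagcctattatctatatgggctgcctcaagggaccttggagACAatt
Snora19: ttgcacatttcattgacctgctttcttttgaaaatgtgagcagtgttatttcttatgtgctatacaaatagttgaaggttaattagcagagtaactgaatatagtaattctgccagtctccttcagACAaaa
Snora61: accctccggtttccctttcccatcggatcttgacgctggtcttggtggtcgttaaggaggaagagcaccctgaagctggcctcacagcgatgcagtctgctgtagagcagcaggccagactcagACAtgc
Snord17: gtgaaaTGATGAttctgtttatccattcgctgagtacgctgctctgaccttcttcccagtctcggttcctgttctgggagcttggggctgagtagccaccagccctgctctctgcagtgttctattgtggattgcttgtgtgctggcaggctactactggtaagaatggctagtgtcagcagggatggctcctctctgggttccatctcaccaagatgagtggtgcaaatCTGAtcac
Snord104: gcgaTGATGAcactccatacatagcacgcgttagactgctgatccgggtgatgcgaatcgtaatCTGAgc
Snord22: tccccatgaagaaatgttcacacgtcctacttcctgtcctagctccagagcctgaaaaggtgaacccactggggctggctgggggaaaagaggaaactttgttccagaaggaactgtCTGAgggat
Snord65: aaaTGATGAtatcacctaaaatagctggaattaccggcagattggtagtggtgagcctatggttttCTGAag
Snord52: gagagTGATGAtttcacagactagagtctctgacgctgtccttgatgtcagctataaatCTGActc

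The boxes fitted the family names of the rows. Box D was found in 20 of 20 C/D members and box C in 15, and ACA in 26 of 28 H/ACA members. For comparison, of 2059 GENCODE microRNA transcripts of 60 to 140 nt, 8.98% held the box D letters, 0.146% the box C letters and 17.2% the ACA letters in the same windows. Of the C/D symbols listed at 0, 30 of 51 with a sequence had box C and 49 had box D, and all 8 H/ACA symbols at 0 had ACA. The GC content had medians of 47.7% in H/ACA and 46.7% in C/D members, beside 48.1% and 44.6% in the symbols at 0.

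snoRNA values were rare and large. Of 2304 values (48 members in 48 cells), 248 (10.8%) were above 0. The lowest was 9.16 FPKM, the median 415 FPKM and the highest 82200.9 FPKM. None lay between 0 and 1 FPKM, and only 1 was under 10 FPKM. A value above 0 and a detected snoRNA are therefore the same thing here. Because the rule asks for 1 FPKM, the counts of detected members describe the choice. Of all 23284 symbols, 60.3% reached 1 FPKM in at least 1 cell and 35.8% in at least 12 cells. At the 12-cell mark there were 5 snoRNAs, 3 H/ACA and 2 C/D. The members closest to the threshold were far above it: Snora23, Snora52 and Snora74a had maxima of 106, 126 and 132 FPKM, and no symbol lay above 0 and below the threshold.

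**Figure D1:**
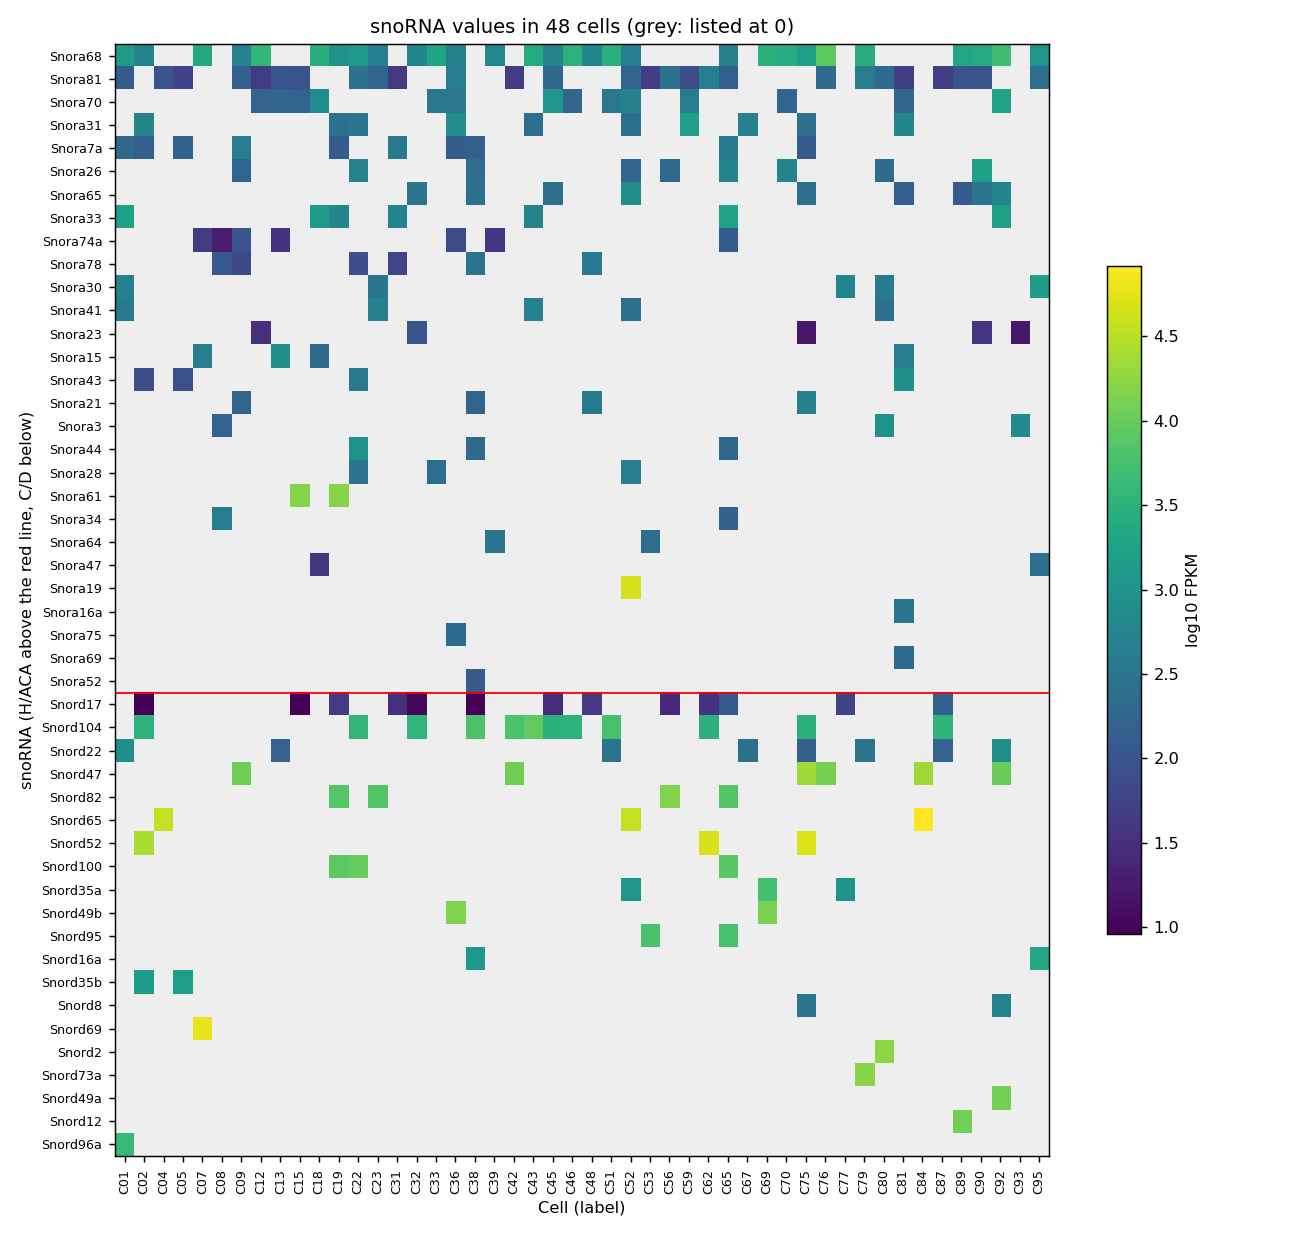
Heat map of the 48 snoRNAs (rows, H/ACA above and C/D below the red line, ordered by cells detected) in the 48 cells (columns, by label), coloured by log10 FPKM, with grey for values listed at 0. Snora68 and Snora81 fill the most cells (29 and 27). The brightest fields lie in rows with few filled cells, mostly C/D rows but also the H/ACA row Snora19 (1 cell).

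Among H/ACA members, Snora68 and Snora81 stood apart from the rest by the number of cells. Snora68 was detected in 29 of 48 cells (exact Clopper-Pearson 95% interval 45.3% to 74.2%). In those cells its value ran from 464 FPKM through a median of 1550 FPKM to 8407 FPKM in C76. Snora81 (chr16:23110756-23110933, plus strand, within Eif4a2, a helicase of translation initiation) was detected in 27 cells (41.2% to 70.5%), at 43.1 to 447 FPKM with a median of 133 FPKM. Both intervals cover counting error only. Thus 2 snoRNAs found in a similar number of cells differed by more than 10-fold in FPKM, and their ranges did not overlap. Snora68 is 131 nt long and Snora81 178 nt, and FPKM values fell with length (below). How far the difference goes with length was not tested.

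Other H/ACA members were found in fewer cells. Snora70 (chrX:74272484-74272620, plus strand, in Rpl10) was detected in 14 cells, with 163, 335 and 1753 FPKM as lowest, median and highest. Snora31 (in Tpt1, the translationally controlled tumour protein gene) and Snora7a (in Rpl32) were detected in 10 cells each, with medians of 402 and 150 FPKM. The counts for Snora26 (in Dancr, a long non-coding RNA) and Snora65 (in Rpl12) were 9 cells each. Those for Snora33 (in Rps12) and Snora74a were 7 each, for Snora78 (in Snhg9) 6, and for Snora23, Snora30 and Snora41 5 each. Of the remaining 15, 10 were in 2 to 4 cells and 5 in 1 cell. Snora15, Snora21 and Snora43 were in 4 cells each, with medians of 416, 268 and 218 FPKM. Snora3, Snora28 and Snora44 were in 3 cells each (717, 294.5 and 214 FPKM), and Snora34, Snora47 and Snora64 in 2 each (289, 149.2 and 273 FPKM). Snora16a, Snora52, Snora69 and Snora75 were in 1 cell each, at 331, 126, 208 and 217 FPKM. All these medians lay within the range of those of the 13 members in at least 5 cells, 32.9 to 1550 FPKM.

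The 2 largest H/ACA values belonged to rows that were seldom filled. Snora19 (chr19:60774330-60774461, minus strand, in Eif3a, a translation initiation factor subunit) was above 0 in C52 alone, at 46423 FPKM. This value is a sum over 2 rows of that symbol, while the coordinates are of 1 GENCODE entry. Snora61 (chr4:132310240-132310369, plus strand, in the long non-coding RNA Snhg12) was above 0 in C15 and C19, at 14980 and 15888 FPKM. Every other H/ACA value was at or below 8407 FPKM, although Snora19 and Snora61 are 132 and 130 nt long, as most of the family is.

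C/D members were in fewer cells at larger values, with a median of 2 cells a member beside 4 for H/ACA members. The difference in medians turned to -0.5 cells within the 23 cells with label numbers above 48. Snord17 (chr2:144265979-144266216, minus strand, in Snx5, a sorting nexin gene) led with 13 cells and had the lowest single value of all members, 9.16 FPKM, with a median of 32.9 FPKM and 157 FPKM at most. At 238 nt it is also the longest. Snord104 (chr11:106500993-106501062, plus strand, within no longer gene on its strand in GENCODE M21) was detected in 12 cells at 3029 to 8811 FPKM, with a median of 3472 FPKM. Snord22 (chr19:8725866-8725991, plus strand, in Snhg1), a snoRNA needed for cleavage of the ribosomal RNA precursor, was detected in 8 cells at 151 to 852 FPKM (median 278 FPKM). Other C/D snoRNAs with that role, Snord118 and the Snord14 group, were listed at 0.

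Fewer cells held the other C/D rows. Snord47 (in Gas5, a long non-coding RNA named for its accumulation in growth-arrested cells) was detected in 6 cells at 10416 to 22660 FPKM (median 12214 FPKM). Snord82 (in Ncl, the nucleolin gene) was detected in 4 cells at 6880, 7207, 7462 and 14524 FPKM. Snord65 (chr11:62604515-62604586, plus strand, in 2410006H16Rik) reached 36501 FPKM in C52, 37053 FPKM in C04 and 82201 FPKM in C84. Snord52 (chr17:34950952-34951017, minus strand, in 1110038B12Rik) reached 26265 FPKM in C02, 47583 FPKM in C62 and 49650 FPKM in C75. Of all C/D members, 6 were above 0 in 1 cell, among them Snord69 (in Gnl3, the nucleostemin gene) with 57908 FPKM in C07. The other 5 were Snord2 (17061 FPKM), Snord73a (16268 FPKM), Snord49a (12289 FPKM), Snord12 (11655 FPKM) and Snord96a (4238 FPKM). Snord100 (in Rps12) and Snord35a (in Rpl13a) were in 3 cells each, with medians of 8301 and 1143 FPKM. Snord49b, Snord95, Snord16a, Snord35b and Snord8 were in 2 cells each, with medians from 432 FPKM (Snord8, 110 nt) to 13716 FPKM (Snord49b, 72 nt).

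The summed FPKM was held by a few rows. Snord65 held 18.3% of all snoRNA FPKM over the 48 cells, Snord52 14.5% and Snord47 10.8%, together 43.6% from 12 values. H/ACA rows supplied 177 of the 248 values above 0 (71.4%) but 21.96% of the summed FPKM, and C/D rows 71 values and 78.04%. The median value above 0 was 300.1 FPKM for H/ACA and 3493 FPKM for C/D rows.

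The size of the values followed the length of the snoRNA. Over the 48 members the annotated length and the lowest value above 0 had Spearman's rho = -0.76, and length and median value above 0 also rho = -0.76. Within the 28 H/ACA members, of 121 to 196 nt, the rho with the median value was -0.38, and within the 20 C/D members, of 66 to 238 nt, it was -0.69. Over the 17 members detected in at least 5 cells it was -0.64. These points share the same cells and the length scaling of FPKM, so the values are a description. The lowest value above 0 had a median of 12289 FPKM in the 11 members under 80 nt, 2846 FPKM in the 6 of 80 to 99 nt, 198 FPKM in the 26 from 120 nt to under 150 nt and 17.8 FPKM in the 4 of 150 nt or more. In 11154 other genes above 0 in at least 5 cells the lowest value had a median of 0.146 FPKM, and 5.75 FPKM in the 44 of them with under 500 nt of exon. The filters are unlike, because the snoRNA groups include 11 members above 0 in only 1 cell. A lowest value tends to be lower when taken over more cells.

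**Figure D2:**
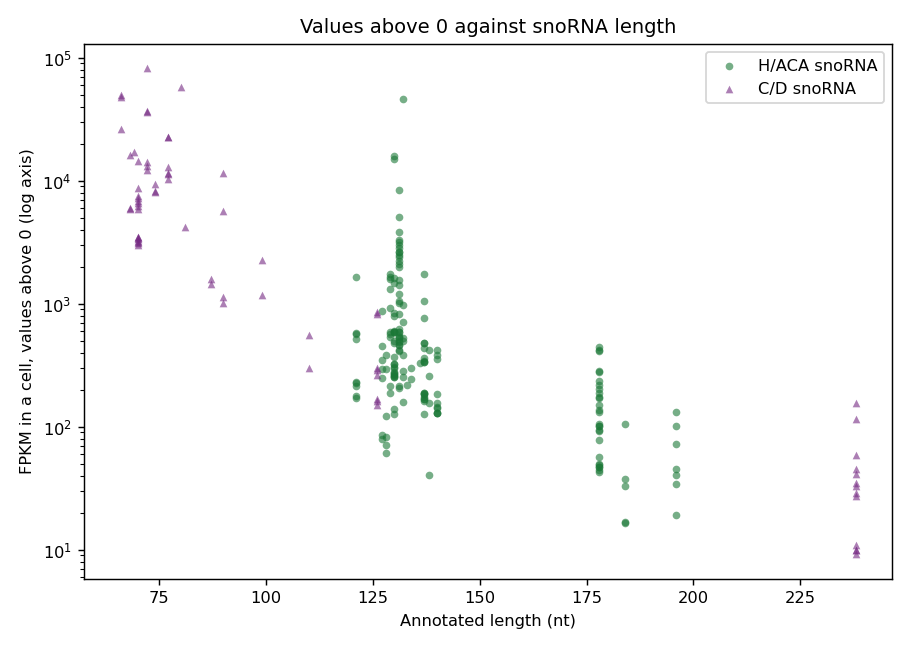
FPKM of every snoRNA value above 0 (log axis) against the annotated length in nt, circles for H/ACA and triangles for C/D snoRNAs. Values fall from above 1000 FPKM in all members under 100 nt to between 9.16 and 157 FPKM in Snord17 at 238 nt, with Snord22 (126 nt) among the H/ACA members.

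At matched length the families can be set side by side for only 1 C/D member. Snord22 (126 nt) had a median of 278 FPKM, beside a median of 289 FPKM over the 25 H/ACA members from 120 nt to under 150 nt. The lowest values of those 25 members ran from 40.2 to 46423 FPKM, so the comparison is a loose one. Of H/ACA symbols in that range, 25 of 33 were members, and of C/D symbols 1 of 4. For C/D symbols the share of members was 17 of 61 under 100 nt and 3 of 10 from 100 nt. The C/D symbols compared at matched length are few, and the difference was not tested.

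In short snoRNAs the values fell into steps. In Snord104, 8 of the 12 cells lay between 1 and 1.16 times the row's lowest value, 3 cells (C51, C42 and C38) at 1.95, 2.07 and 2.17 times, and C43 at 2.91 times. Snord47 had 4 cells within 1.24 times its lowest value and 2 at 2.17 and 2.18 times. Snord82 had 3 cells within 1.08 times and 1 at 2.11 times, and Snord65 had 2 within 1.02 times and 1 at 2.25 times. No cell of these 4 rows lay between 1.3 and 1.7 times.

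Over the 11 members under 100 nt that were above 0 in 2 or more cells, 31 values remained beside each row's lowest. Of these, 19 (61.3%) were above 1 and up to 1.3 times the lowest, 10 (32.3%) above 1.7 and up to 2.3 times, 1 at 2.91 times and 1 above 3.3 times. None lay above 1.3 and up to 1.7 times. In the 26 members of 100 nt or more, 59 of 169 such values (34.9%) were above 3.3 times the lowest, 47 (27.8%) up to 1.3 times and 28 (16.6%) above 1.7 and up to 2.3 times. In 4605 other genes above 0 in 2 to 12 cells, 22.9% of the values beside the lowest were within 1.5 times it, against 61.3% for the short snoRNAs. The ranges of these ratios were chosen after the values had been seen. FPKM holds no read number, and how many reads a step stands for was not tested. In Snord65 the lowest step itself lay at 36501 and 37053 FPKM.

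**Figure D3:**
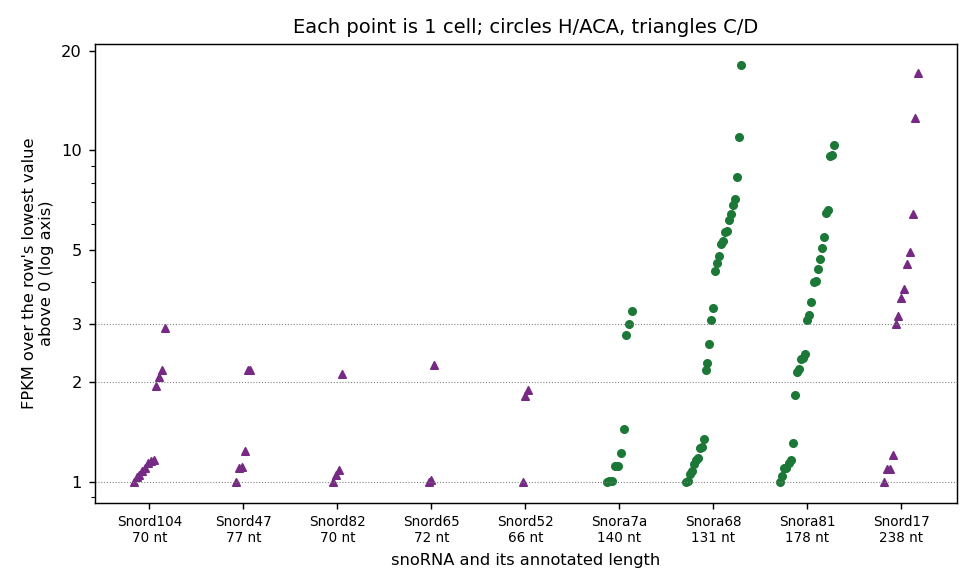
FPKM of each cell divided by the row's own lowest value above 0 (log axis) for 9 snoRNAs, with annotated length under each name and dotted lines at 1, 2 and 3 times. The 5 C/D snoRNAs under 100 nt on the left lie near 1, 2 and 3 times, while Snora68, Snora81 and Snord17 spread up to 18.1, 10.4 and 17.1 times.

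Cells differed in how many snoRNAs they showed and in their share of the cell's sum. A cell had a median of 4 members detected, from 2 (C04, C67, C84 and C93) to 12 (C65), with a median of 3 H/ACA members (0 to 9) and 1 C/D member (0 to 5). H/ACA members outnumbered C/D members in 35 cells, the reverse held in 6, and 7 cells had equal numbers. C/D members were missing in 10 cells and H/ACA members in 1, C84. The share of a cell's summed FPKM in snoRNA rows had a median of 0.952% with quartiles of 0.298% and 2.71%. It ran from 0.0228% in C39 to 16.5% in C84, was under 1% in 25 cells and was at least 5% in 8.

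In several cells a high share rested on 1 or 2 rows. The share in C84 was made of Snord65 (78.4% of its snoRNA FPKM) and Snord47. In C52, at 14.5%, Snora19 held 53.3% of the snoRNA FPKM and Snord65 most of the rest. In C07, at 8.57%, Snord69 held 95.6%, and in C62, at 7.61%, Snord52 held 93.1%. Snord65 held 99.7% in C04 (6.38%) and Snord52 81.01% in C02 (5.83%). The remaining 2 cells with at least 5% were more mixed. In C92, at 6.87%, the largest row was Snord49a with 37.1%, ahead of Snord47. In C19, at 6.23%, Snora61 held 47.2%, ahead of Snord100 and Snord82. In 40 of 48 cells the largest member held more than 50% of the cell's snoRNA FPKM, with a median of 67.2%. That largest member was a C/D row in 30 cells and an H/ACA row in 18. The H/ACA part of the snoRNA FPKM ran from 0% to 100% with a median of 32.6%, and it exceeded 50% in 19 cells. The share and the number of members detected had rho = 0.26 over the 48 cells: C84 had the largest share and the smallest number of members, C65 the largest number and a share of 1.67%.

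**Figure D4:**
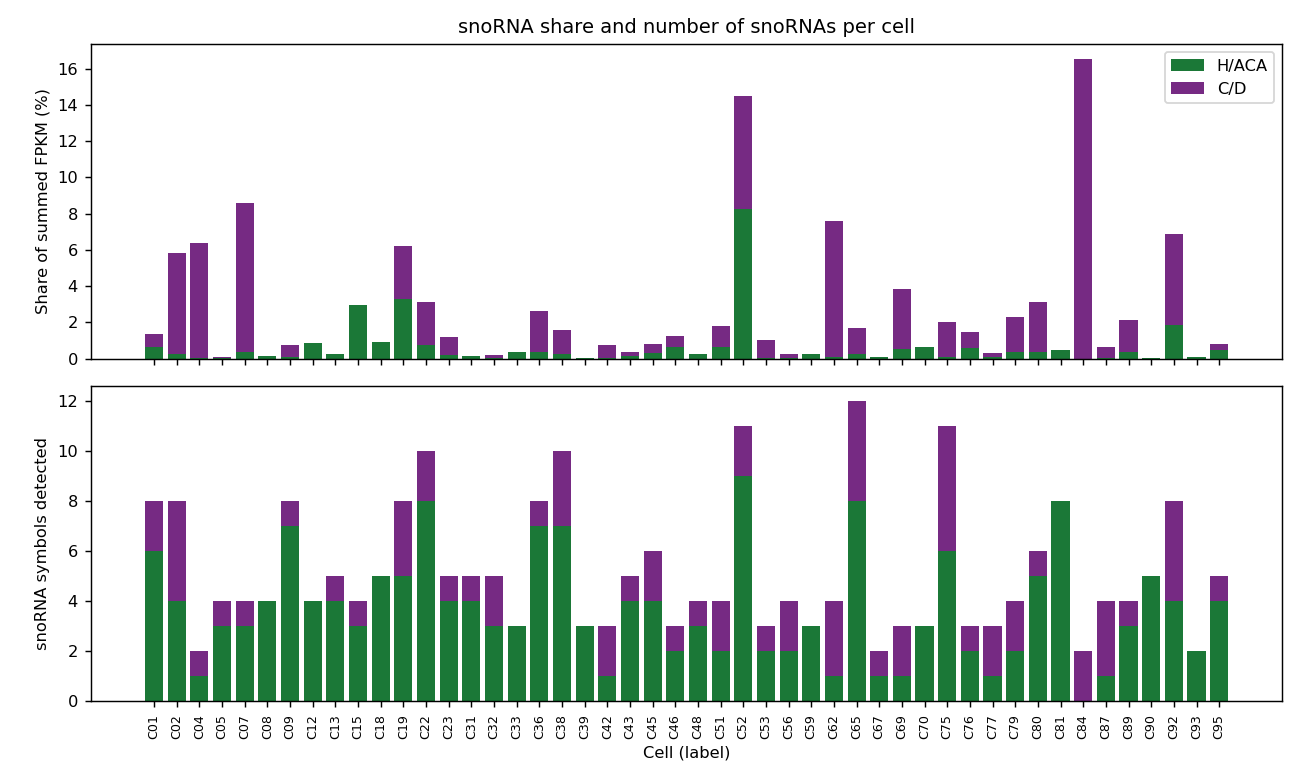
Share of each cell's summed FPKM in snoRNA rows in percent (top) and number of snoRNA symbols detected (bottom) for the 48 cells in label order, H/ACA in green and C/D in purple. C84 and C52 reach 16.5% and 14.5%, while the most symbols (12) are in C65, where the share is 1.67%.

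MicroRNA rows were larger contributors. They held a median of 8.50% of a cell's sum, up to 96.5% in C90, and exceeded the snoRNA rows in 37 cells. Both are parts of 1 sum. The snoRNA and microRNA shares had rho = -0.41, and with microRNA rows left out of the sum the rho was -0.073. The median snoRNA share was then 1.67%, with a range from 0.104% to 16.8%. Small Cajal body RNA (scaRNA) rows took at most 0.152% of a cell's sum and had a median of 0%.

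The number of other genes detected per cell (4777 to 7003, short RNAs left out) was weakly related to the snoRNAs. Over 48 cells it had rho = 0.26 (Pearson's r = 0.25, and 0.25 without the 2 cells farthest from the median) with the number of members detected. For H/ACA members alone rho was 0.32 and for C/D members 0.033. These cells share 1 device, their depth is unknown, and the number of other genes fell with the label number (rho = -0.82). Within the 25 cells with label numbers up to 48 the rho with the number of members was 0.13, and within the 23 cells above 48 it was 0.068, both lower than over all cells. Pearson's r was 0.19 and 0.32 in those parts, so the drop was not seen on both measures. For C/D members rho was 0.027 and 0.27. The share of summed FPKM had rho = 0.094 with the number of other genes, 0.22 and 0.25 within those parts. Cells up to 48 and above had medians of 5 and 4 members and of 0.831% and 1.47% for the share, and their ranges overlapped.

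Single members had mostly small correlations with the number of other genes. Of the 17 members in at least 5 cells, Snora74a (rho = 0.40) and Snora7a (0.40) reached 0.3 and none reached -0.3, with Snora23 lowest at -0.20. The median was 0.038. Among 10598 symbols in at least 5 cells, 12% had rho of at least 0.3 and 0.594% of at most -0.3, with a median of 0.12. A count of 2 of 17 is close to that background. Snora74a and Snora7a also fell with the label number (rho = -0.30 and -0.37).

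Most host genes of members were detected in every cell, and so were many, but not most, hosts of snoRNAs listed at 0. GENCODE M21 placed 46 of the 48 members inside a longer gene on the same strand, 44 of them in genes found in the table. These were 36 hosts, of which 26 reached 1 FPKM in all 48 cells. The median host level was 279.9 FPKM. For the 53 symbols at 0 with a host in the table, 19 of 39 hosts were detected in all cells and the median host level was 46.8 FPKM. The share of all symbols detected in all 48 cells was not computed. Rpl23a (median 4314 FPKM), Rpl3 (3518 FPKM) and Hspa8 (3430 FPKM) held 3, 1 and 2 C/D symbols, and all 6 were at 0 in every cell.

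Ribosomal protein genes hosted 10 of the 28 H/ACA members and 5 of the 20 C/D members. Of 11 H/ACA symbols in such hosts 10 were members, beside 18 of 25 in other places. For C/D symbols the counts were 5 of 20 and 15 of 53. A median host level and the number of cells with the snoRNA had rho = 0.36 over 32 H/ACA symbols, 0.13 over 65 C/D symbols and -0.030 over the 44 members. Low hosts did hold members: Snhg9 had a median of 0 FPKM and was detected in 17 cells, while its Snora78 was detected in 6, and Zbed3 (median 0.370 FPKM) holds Snora47, detected in 2.

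Across cells, the rho between a snoRNA and its host was mostly small. Over the 14 members in at least 5 cells whose host was in the table, the rho with the host had a median of 0.016 and ran from -0.28 (Snora23 and Ipo7) to 0.31 (Snora81 and Eif4a2), and 7 were above 0. Snora81 and Eif4a2 was the only one to reach 0.3. The same rho for snoRNAs paired with other genes was not computed. Most of these members were at 0 in most cells, and such ties limit what a rho can show. In GENCODE M21, 19 of the members lay in introns of every host transcript, 26 overlapped an exon of a non-coding transcript of the host, and 1, Snora7a in Rpl32, an exon of a protein-coding transcript. Of all symbols, 27 of 51 with such exon overlap and 19 of 52 without it were members. The families differ in both counts. For H/ACA symbols they were 16 of 19 and 11 of 15, and for C/D symbols 11 of 32 and 8 of 37. These differences were not tested. Where a snoRNA overlaps an exon, reads of the host and of the snoRNA cannot be told apart in these values.

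Few cells held more than 1 member of the same host, and most of these members were in 1 to 3 cells each. Snhg12 held Snora16a, Snora44 and Snora61, in 1, 3 and 2 cells, with no cell in common. The other host with 3 members was 2410006H16Rik, with Snord49a, Snord49b and Snord65 in 1, 2 and 3 cells, again with none in common. Of 10 such pairs in 6 hosts, 2 shared a cell: Snora33 and Snord100 of Rps12 in 2 cells (C19 and C65) and Snora81 and Snord2 of Eif4a2 in 1. That made 3 shared cells, beside 1.58 if the members of each pair had fallen into cells independently. Sharing was thus not rarer than that figure, and the difference was not tested.

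Transcripts of genes for snoRNA-binding and processing proteins were detected in more cells than most snoRNAs. Mature snoRNAs are short and have no poly(A) tail, so the 2 kinds of RNA are not compared like for like. The 4 C/D core genes Fbl (fibrillarin), Nop56, Nop58 and Nhp2l1 reached 1 FPKM in every one of the 48 cells, with medians of 84.8, 292, 136 and 261 FPKM. Of the 4 H/ACA core genes, Dkc1 (dyskerin), Nop10 and Nhp2 were in all 48 cells and Gar1 in 28, with medians of 118.7, 344, 195 and 2.42 FPKM. All 9 assembly genes found in the table were in at least 12 cells, Naf1 in the fewest (25), and so were all 7 trimming and decay genes, with Papd5 in 25 and Xrn2 in 47. Their rho with the snoRNA share ran from -0.21 (Nop10, Rpap3) to 0.39 (Znhit6), and that of Fbl and Dkc1 was -0.044 and 0.045. The 5 nucleolar genes were led by Npm1 (median 3297 FPKM, in all cells), and Coil, a Cajal body protein gene, was in 24 cells.

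The row of the ribosomal RNA precursor, Rn45s, the RNA that snoRNAs modify, was detected in all 48 cells at 966 to 3912 FPKM (median 1844 FPKM). It had rho = -0.44 with the number of snoRNA members detected, -0.49 for H/ACA and 0.13 for C/D members. Pearson's r was -0.24, -0.42 and 0.23 in the same order. The share of other genes with such a rho to the number of members was not computed. Rn45s also rose with the label number (rho = 0.39) and fell with the number of other genes (rho = -0.36). The rho with H/ACA members was -0.56 in cells up to label number 48 and -0.21 in those above. Its rho with the snoRNA share was 0.084. Rn45s was examined after the values had been seen, and the part of the number of genes in these values was not tested.

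Among 10571 other genes in at least 5 cells, 2.19% had rho of at least 0.3 with the snoRNA share and 2.02% of at most -0.3. The 5 with the most similar pattern were Dcaf15 (0.55, in 9 cells), Ptprg (0.54), Unc5b (0.50), Htra2 (0.50) and Gpsm2 (0.48). The lowest were Ripply3 (-0.49) and Hnrnpk (-0.47), chosen after their values were seen. Of the 8 mesoderm markers, 7 had a positive rho with the share, up to 0.36 for Kdr, a receptor of early mesoderm, and 0.30 for T, a mesoderm transcription factor. Eomes was at -0.041 and Mesp1 at 0.16. All 5 pluripotency markers had a negative rho, from -0.17 (Nanog, Sox2) to -0.015 (Pou5f1). Other markers had both signs: Sox1 0.26, Gata1 0.16, Apoa1 0.069, Pax6 -0.037, Foxa2 -0.13, Pecam1 -0.17, Ttr -0.19 and Sox17 -0.21. Most of these were detected in few or no cells. The share of all genes with either sign was not computed, and a relation of the share to cell type was not tested. With the number of snoRNA members detected, Mesp1 had rho = 0.021.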

How the data were processed

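Single-cell RNA-seq of 48 cells was analysed from 1 table with a column per cell, matched to the cells' titles. Its unit is not named. The values were treated as FPKM made by the authors, since Cufflinks 2.2.1.0 is listed in the submitters' processing notes. CASAVA 1.8.2, TopHat 0.7 and build mm10 are listed too, with no role or order. Annotation, strand handling and read filters were not given in the sources used here. FPKM divides by transcript length, so very short RNAs can take large values, and without read numbers the depth is unknown. FPKM summed to between 480821 and 12864400 per cell.

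Rows of 1 symbol were summed, and 1 FPKM or more counted as detected. No cell was removed. Doublets were not called, for want of counts. Of 109 snoRNA symbols, 107 were found in GENCODE M21 (GRCm38), which gave coordinates, lengths, sequences and hosts (longer genes on the same strand that span the snoRNA). The authors' annotation may give other lengths. Correlations are Spearman's rho over cells unless named, with Pearson's r for the share on log2(share + 1), and carry no p. The code for rho across all genes was checked on simulated data with planted relations. Named members were those of each family in the most cells (8), with the largest sums (5) and the largest values (3), those nearest the threshold, the extremes of rho with other genes, hosts of at least 3 members, and the 5 genes most like the snoRNA share. Others were named after their values were seen. The members and lists were chosen with earlier results of these data known. Python 3.11.15, numpy 2.4.6, pandas 2.3.3 and scipy 1.17.1 were used. Some host genes and 1 member's sequence are not reported here.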

Additional observations from a re-analysis of the deposited data

How the results depend on the processing

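Of 65 values recomputed for 10 results under 16 other settings, 57 kept their direction and moved by less than 0.1 for correlations, 1.5 times for counts or 1 SD over cells or members for other values. The last margin is loose: for the median share of 0.952% the SD was 3.53 percentage points. The number of members stayed at 48 at detection thresholds of 0.1 and 10 FPKM and with each cell rescaled to 1000000, and was 46 without the 7 cells with the fewest genes. These thresholds could not change it, because the smallest maximum of a member was 106 FPKM and the other 61 symbols were 0. The rho of members detected with other genes was 0.038 at 10 FPKM, 0.13 in cells with label numbers up to 48 and 0.068 above. The rho of the snoRNA share with other genes was 0.22 and 0.25 in those 2 parts. The difference in median cells detected between H/ACA and C/D members, 2 over all cells, was -0.5 cells in cells with label numbers above 48. The rho of length with the median value was -0.53 without the 7 cells and -1 over the 5 members in at least 12 cells. The cause of these changes was not tested. No paired analysis was possible because all cells form 1 group. A snoRNA listed at 0 was not detected here, and since depth is unknown, this does not show that it was absent.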
